A study of Mus musculus with 8 samples.

Results

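The Mediator complex carries regulatory input from transcription factors to RNA polymerase II, and the genes of its subunits were examined for Flag-HoxB4 chromatin immunoprecipitation (ChIP) signal at their promoters. Members were chosen by name: genes whose symbol, in the array annotation or after renaming, is Med followed by a digit, with Ccnc and Cdk8 added. The name rule takes 33 RefSeq genes, of which 30 had measurable windows on the promoter arrays among 16624 genes with a window. Med12l, Med13 and Med9os had no probe. The annotation gave 16 of the 30 under an older symbol, such as Surf5 for Med22, Trfp for Med20, Crsp7 for Med26, Thrap2 for Med13l, Pcqap for Med15 and Pparbp for Med1. The family itself was singled out because earlier results of these same arrays placed it high, so the ChIP values below are a description and no test was run on them.

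The ChIP cells were blood progenitors made from the mouse embryonic stem cell line B6N-22UTR. Per the series text, c-Kit+CD41+ precursors were taken from embryoid bodies (EBs) at day 6, plated on OP9 stromal cells and given a retrovirus carrying 3xFlag-HoxB4, and c-Kit+ cells were recovered by magnetic sorting at day 12 of coculture. HoxB4 was therefore a tagged protein made from a retrovirus. Flag-IP DNA (Cy5) was compared with input DNA (Cy3) on 2 promoter arrays with different probe sets, after amplification with T7 RNA polymerase. Each promoter thus had 1 Flag-IP sample against 1 input, with no replicate and no cells without the tag on these arrays. Pooling of cells before ChIP was not stated.

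Each value is log2 of Flag-IP over input signal, centred on the median of the array, so that 0 is the level of a typical probe and 1 is a ratio 2 times as high. A window is the median of 3 neighbouring probes of a gene whose starts lay at most 1000 bp apart, and the highest window is the largest such median of the gene. The start mean is the mean over probes within 500 bp of the gene start given in the files. The highest window takes the best of many positions, with a median of 24 windows for members and 25 for all genes, so it is high for many genes: the lower quartile of all genes was 0.54. The members held 14 genes on array 1 and 16 on array 2, with 817 probes. Of these probes 96.1% were well above background in both channels, as were all 90 probes of the members' highest windows. The median error that the scanner software assigned to a member probe was 0.23 on the log2 scale. This error covers the reading of the spot, not the spread between samples.

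Mediator is built from a head, a middle and a tail module held together by the scaffold subunit Med14, and a separable kinase module can dock on it. Head and middle contact RNA polymerase II, the tail receives many activators, and the kinase module of Cdk8, cyclin C, Med12 and Med13 or its relative Med13l can keep polymerase from joining. Mediator is present in every cell type, and at the enhancers of blood progenitors it works with lineage transcription factors. HoxB4 is a homeodomain transcription factor that expands blood progenitors in culture when supplied from a transgene.

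The promoter sequences of the 3 members with the highest start means, Med22, Med20 and Med19, and of the member with the lowest, Cdk8, are given from RefSeq (GRCm38.p6). They were matched by symbol, and run from 250 bases before to 50 bases after the RefSeq start, 5′ to 3′ on the strand of the gene. Capitals mark 3 of the short motifs that were searched on either strand: TAAT, the core of many homeodomain sites, CCGGAA, the core of many Ets sites, and CCAAT, the core of NF-Y sites. No source used here states the build behind the probe coordinates, so the array positions are not placed on these sequences.
Med22 (chr2:26910593-26910892, minus strand): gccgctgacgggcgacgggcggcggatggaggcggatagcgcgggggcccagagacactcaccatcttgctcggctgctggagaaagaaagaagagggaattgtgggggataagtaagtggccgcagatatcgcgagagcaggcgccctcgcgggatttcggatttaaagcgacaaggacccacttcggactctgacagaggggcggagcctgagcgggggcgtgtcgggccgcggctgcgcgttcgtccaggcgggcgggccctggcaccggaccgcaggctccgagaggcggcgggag
Med20 (chr17:47611335-47611634, plus strand): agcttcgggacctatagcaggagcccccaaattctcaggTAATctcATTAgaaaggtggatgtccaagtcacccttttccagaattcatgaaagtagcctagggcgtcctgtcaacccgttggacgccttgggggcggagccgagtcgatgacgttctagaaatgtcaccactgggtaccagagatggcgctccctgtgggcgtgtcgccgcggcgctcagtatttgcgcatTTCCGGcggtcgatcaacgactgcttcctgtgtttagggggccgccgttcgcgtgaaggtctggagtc
Med19 (chr2:84678152-84678451, plus strand): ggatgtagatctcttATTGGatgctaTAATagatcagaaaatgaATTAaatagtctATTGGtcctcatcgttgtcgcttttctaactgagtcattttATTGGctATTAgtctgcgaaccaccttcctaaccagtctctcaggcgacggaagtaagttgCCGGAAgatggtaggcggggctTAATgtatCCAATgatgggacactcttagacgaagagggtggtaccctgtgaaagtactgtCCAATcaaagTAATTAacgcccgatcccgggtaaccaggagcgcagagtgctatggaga
Cdk8 (chr5:146231000-146231299, plus strand): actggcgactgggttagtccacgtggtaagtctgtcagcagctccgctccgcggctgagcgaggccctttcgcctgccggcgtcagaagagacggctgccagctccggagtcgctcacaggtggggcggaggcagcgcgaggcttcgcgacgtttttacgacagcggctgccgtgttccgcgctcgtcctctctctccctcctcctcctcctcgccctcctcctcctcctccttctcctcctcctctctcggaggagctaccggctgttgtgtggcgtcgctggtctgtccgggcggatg

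Med22 and Cdk8 held none of the 3 marked motifs, although they stood at opposite ends of the family by start mean. Med20 held 2 TAAT, on opposite strands, and 1 CCGGAA, 18 bases before the start. Med19 held 6 TAAT, of which 2 overlap on opposite strands in 1 TAATTA, together with 1 CCGGAA and 5 CCAAT. A match is only a run of letters, and its absence says only that the letters are not in this window.

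As a family, the Mediator genes lay above the typical gene but only moderately so. The median highest window was 1.33 for the 30 members (lowest 0.44, highest 2.18), against 0.89 for all genes. A highest window of at least 1 was seen in 20 of 30 members (66.7%), against 41.7% of all genes. A highest window of at least 2 was reached by Med22 and Med28, or 6.67% of members, against 2.9% of all genes. The median start mean was 0.73 for members and 0.32 for all genes. It was above 0 in 26 of 30 members (86.7%), against 73.2% of all genes. A start mean of at least 1 was seen in 5 members (16.7%), against 11.5% of 16203 genes with a probe there. Depletion did not set the family apart, since 17 members (56.7%) had a lowest window of -1 or less, against 54.1% of all genes. Ranked among all genes by highest window, the members ran from the 19.8th percentile for Med15 to the 98.5th for Med22, with a median at 79.2. The family therefore spread over most of the range of the arrays. With windows of 5 probes, 7 of the 20 members at 1 or above fell below it: Med28 (0.53), Med23 (0.73), Med27 (0.75), Med8 (0.78), Med4 (0.81), Med7 (0.90) and Med6 (0.97).

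**Figure D1:**
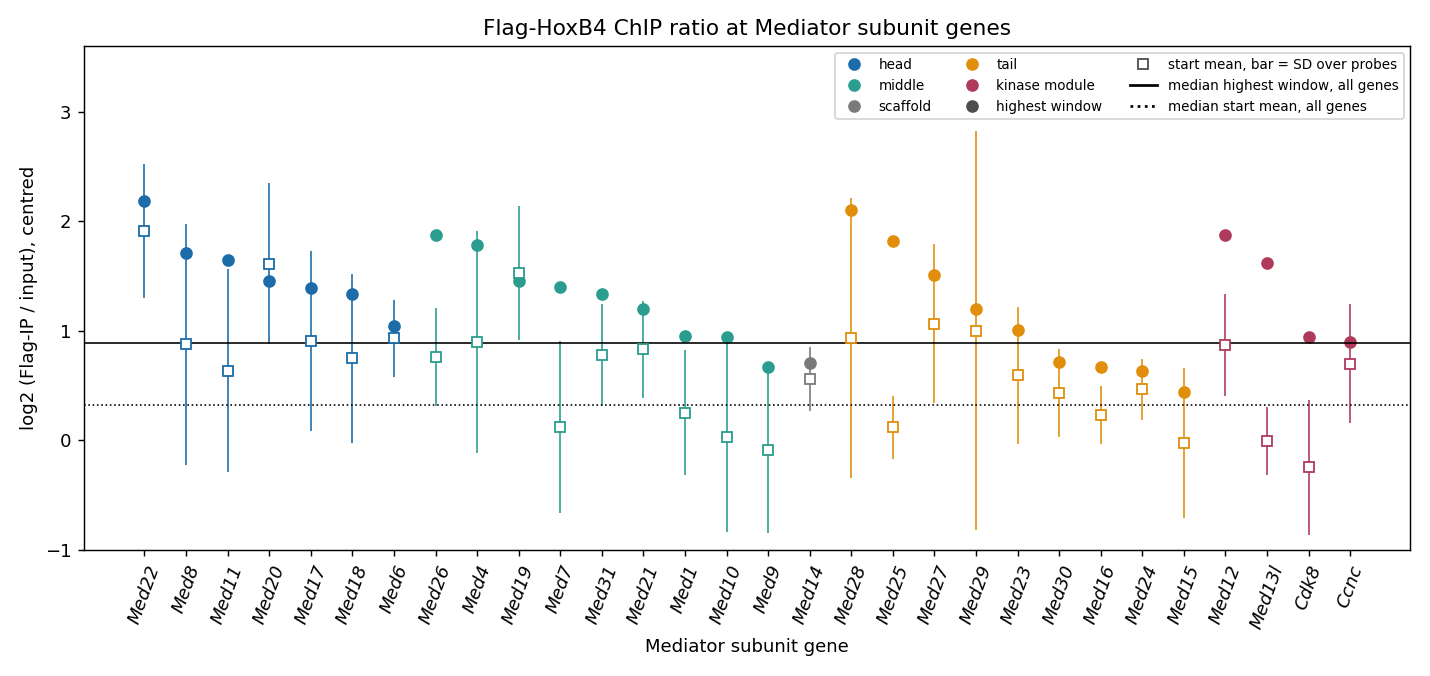
Highest window (filled circles) and start mean (open squares, bar = SD over the probes within 500 bp of the start) of the 30 members as log2 of Flag-IP over input, ordered by module, with lines at the medians of all genes (0.89 and 0.32). All 7 genes assigned to the head lie above both lines, whereas those assigned to the tail run from 2.11 in Med28 down to 0.44 in Med15.

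The modules followed a single assignment, with Med27, Med28, Med29 and Med30 placed in the tail, and no other assignment was tried. All 7 genes assigned to the head stood above the median of all genes on both measures. All 7 had a highest window of at least 1, with a median of 1.46, and all 7 start means were above 0, from 0.64 in Med11 to 1.91 in Med22. Their median start mean was 0.90. For 6 of the 7 the highest window lay within 500 bp of the start.

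Med22, a head subunit that pairs with Med11, had the highest value of the family on both measures. The 3 probes of its highest window, 1329, 497 and 301 bp inside the gene, read 0.96, 2.18 and 2.29. Within 500 bp the 4 probes at -72, 193, 301 and 497 bp read 2.17, 1.00, 2.29 and 2.18, a start mean of 1.91 ± 0.61 (SD over 4 probes) at the 99.5th percentile of all genes. The signal did not end at the start, since 4 neighbouring probes from 1887 to 2535 bp read between 1.06 and 2.47. The array annotation places 1 of its probes also in the promoter of Rpl7a, a ribosomal protein gene transcribed the other way, whose own start mean was 1.97. The signal at this shared stretch thus cannot be assigned to either gene.

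Med20 had the second highest start mean, 1.61 ± 0.73 (SD over 4 probes). Its probes at -97, 88, 241 and 481 bp read 1.26, 2.68, 1.46 and 1.05. The probe at 88 bp was the highest single probe of any member, while the next, at 788 bp, read -0.19. In yeast, Med20 forms a movable part of the head with Med18, which Med8 joins to the rest. Bysl, a gene of small ribosomal subunit maturation, shares 1 probe with Med20 and had a start mean of 1.17.

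Med8 had a highest window of 1.71, from probes at -36, 84 and 254 bp that read 0.52, 2.14 and 1.71. Probes on either side, at -422 and 599 bp, read -0.65 and -0.22. The signal at its start was therefore narrow, and the start mean of 0.88 ± 1.1 (SD over 5 probes) has a spread larger than the mean. Single Med8 probes farther off were also high, at -1919 bp (2.34), 1191 bp (1.36) and 1627 bp (1.92). Med11 had a highest window of 1.65, but centred at -4762 bp, with probes of 1.82, 1.11 and 1.65. The annotation lists these probes also for a transcript of Arrb2, with the middle probe 14516 bp from its start. Within 1000 bp of the Med11 start the highest window was 1.30. Med17, the central subunit of the head, had a highest window of 1.39 and Med18 one of 1.33, both near the start. Med6, which contacts the middle module, had 1.04 with a start mean of 0.93 ± 0.35 (SD over 6 probes), the lowest spread of the module.

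The 9 middle module genes had a median highest window of 1.34 and a median start mean of 0.76, and 6 of 9 reached a highest window of at least 1. Their start means ran from -0.09 in Med9 to 1.53 in Med19. Med19 stood out in the module by start mean, with 1.53 ± 0.61 (SD over 5 probes). Its probes at -180, -47, 146, 253 and 375 bp read 2.31, 1.45, 0.66, 1.83 and 1.39, so each lay above 0. Tmx2, a thioredoxin-related membrane protein gene on the other side of this start, shares 2 of its probes and had a start mean of 1.07.

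Med4 had a highest window of 1.78, from probes at 120, 297 and 466 bp that read 1.78, 0.74 and 1.81. Med26, which in mammals connects Mediator to elongation factors, had a highest window of 1.87 that lay 52522 bp inside the gene. Its probes there read 1.87, 1.50 and 2.24. They belonged to a run of 13 neighbouring probes, from 50844 to 52965 bp, that all read at least 1.01, the longest such run of any member. Its start was lower, with a start mean of 0.76 ± 0.45 (SD over 6 probes) and a highest window of 1.09 within 1000 bp.

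Med21 (1.20), Med31 (1.34) and Med7 (1.40) had intermediate highest windows. All 3 probes of the Med21 window are annotated also to Tm7sf3, and with probes of 1 gene only its highest window was 0.55. The start mean of Med7 was only 0.12 ± 0.79 (SD over 5 probes), since its window centred on 584 bp. Med1, the subunit that binds nuclear receptors, had a highest window of 0.95 at -9253 bp and a start mean of 0.25. The 3 probes of that window are shared with Cdk12, which encodes a kinase of the polymerase tail, and with probes of 1 gene only it was 0.61. Med10 also had 0.95, at 2352 bp. Med9 was the lowest of the module, with a window of 0.67 from probes that read 0.67, -0.46 and 0.96. Med14, the scaffold, had a highest window of 0.71 and a start mean of 0.56 ± 0.29 (SD over 3 probes), below the median of all genes by window and above it by start mean.

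The 9 tail module genes had the widest range of highest windows among the modules, from 0.44 to 2.11, although not of start means. Their median highest window was 1.01 and their median start mean 0.47, with 5 of 9 at a window of at least 1. Med28 had the second highest window of the family, 2.11, from probes at 55, 214 and 360 bp that read 0.07, 2.11 and 2.44. Only 2 of its probes were high, and with windows of 5 probes its highest value was 0.53. The alternative background correction (normexp) also lowered it, to 1.07.

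Med25, a target of the viral activator VP16, had a highest window of 1.82 at -4267 bp, with probes of 2.14, 1.15 and 1.82. The annotation lists these probes also for a transcript of Ap2a1, with the middle probe 32856 bp from its start. A run of 7 neighbouring probes from -4538 to -3676 bp read at least 1.02. The start of Med25 was flat, with a start mean of 0.12 ± 0.29 (SD over 6 probes). Med27 had a highest window of 1.51 at 116 bp and a start mean of 1.07 ± 0.72 (SD over 5 probes). Med29 had a start mean of 1.00 from only 2 probes that disagreed (SD 1.82). Without the probe it shares with Paf1, a gene of the polymerase-associated elongation complex, its start mean was -0.28.

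The 4 lowest members by highest window were in the tail or middle. Med15, which in mammals serves the sterol regulators SREBP, had 0.44 from probes of 0.69, 0.05 and 0.44, and a start mean of -0.03 ± 0.69 (SD over 4 probes). Med24 had 0.63 from probes of 0.66, 0.54 and 0.63 around its start, with a start mean of 0.47. Med16 had 0.67 from probes of 0.55, 0.67 and 0.89, all more than 1000 bp inside the gene, and Med9 is given above. Med30 had a window of 0.71 and a start mean of 0.43, and Med23, a subunit used by the Ets factor Elk1, had 1.01 and 0.59.

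The kinase module had 4 measured genes, with a median highest window of 1.28 and a median start mean of 0.35, and 2 of the 4 start means were above 0. Med12 had a highest window of 1.87 at -6487 bp, upstream of its start, with probes of 1.89, 1.51 and 1.87. These probes are annotated also to Il2rg, the shared gamma chain of several cytokine receptors, which has 17 probes in common with Med12. Il2rg itself had a highest window of 2.30 and a start mean of 1.90. With probes of 1 gene only, the highest window of Med12 was 1.13, and its start mean with all probes was 0.87 ± 0.46 (SD over 6 probes).

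Med13l had a highest window of 1.61 at 954 bp, with a start mean of -0.01 ± 0.31 (SD over 5 probes). Cdk8, the kinase, had the lowest start mean of the family, -0.24 ± 0.62 (SD over 3 probes), from probes at -405, 302 and 446 bp of 0.31, -0.14 and -0.90. No Cdk8 probe in use lay between -405 and 302 bp, so the stretch nearest the start of Cdk8 was not measured. Its highest window, 0.94 at -850 bp, lies among 16 probes shared with Rnf6, a ubiquitin ligase gene with a start mean of 0.99. With probes of 1 gene only, the highest window of Cdk8 was -0.03. Ccnc, which encodes cyclin C, had a highest window of 0.90 and a start mean of 0.70 ± 0.55 (SD over 5 probes). The median start mean of the 4 kinase genes (0.35) was below that of the 7 head genes (0.90), a difference that was not tested. The genes overlapped, since Med12 (0.87) and Ccnc (0.70) stood above the head gene Med11 (0.64). Cdk19, the paralog of Cdk8, is not among the 4 and had a start mean of 1.18.

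**Figure D2:**
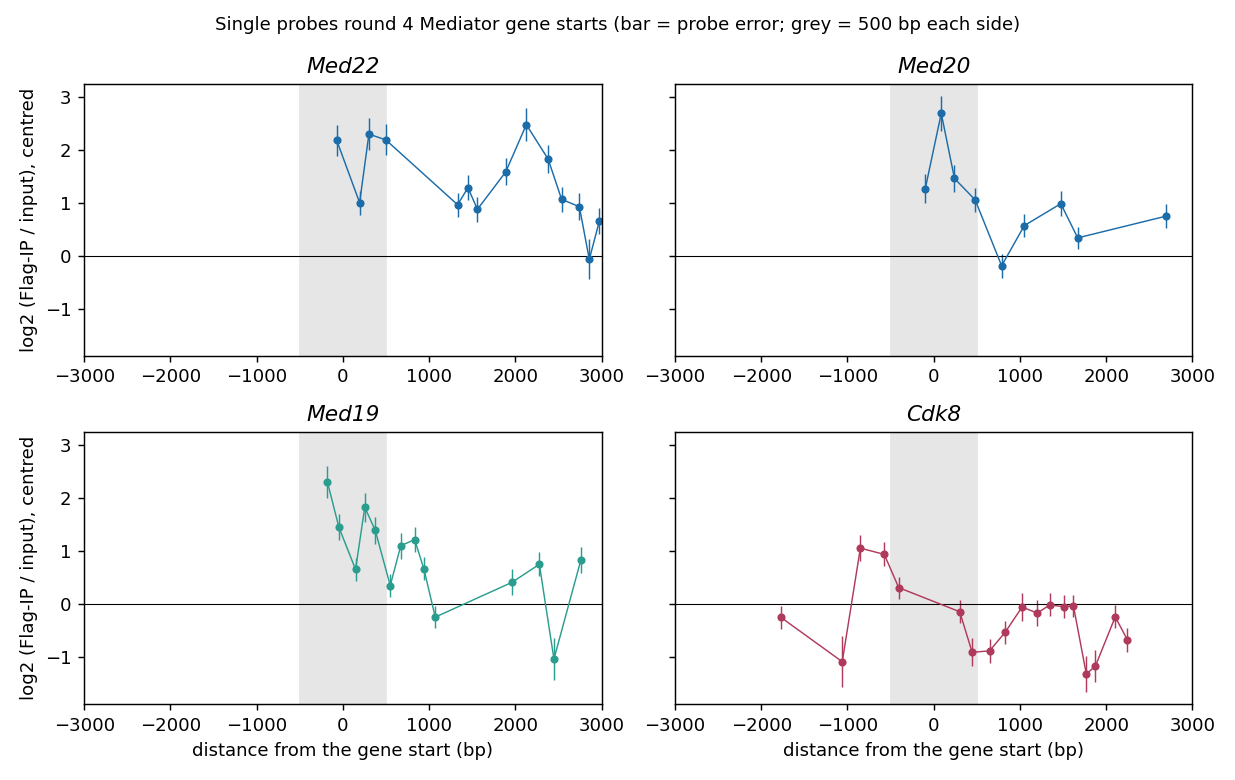
Log2 of Flag-IP over input of single probes against distance from the gene start in bp (bar = error assigned by the scanner software; grey = 500 bp on each side) for the 3 members with the highest start means and for Cdk8, the lowest. Med22, Med20 and Med19 peak at 2.29, 2.68 and 2.31 in the grey span, while the 3 probes of Cdk8 there read 0.31 or less. Cdk8 had no probe in use between -405 and 302 bp.

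The position of the highest window divided the high members into a group at the start and a group far from it. In 15 of 30 members (50%) the highest window lay within 500 bp of the start, against 36.0% of all genes. Among the 8 members with the highest windows, Med22, Med28, Med4 and Med8 had it within 500 bp, whereas Med12, Med25 and Med11 had it at -6487, -4267 and -4762 bp and Med26 at 52522 bp. Restricted to windows within 1000 bp of the start, the median of the members was 1.16, against 0.70 for all genes, and 19 of 30 reached 1, against 30.5% of all genes. Beyond 1000 bp the medians were 0.64 for members and 0.62 for all genes. By these medians of the highest window, the gap between the family and all genes lay in windows near the start.

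**Figure D3:**
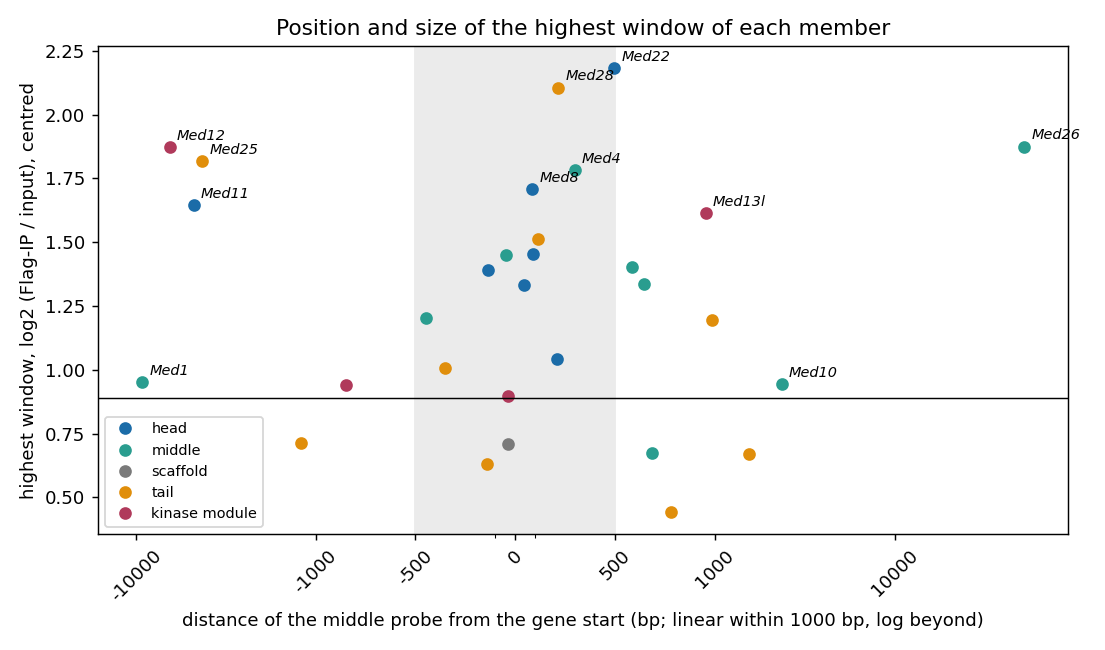
Highest window of each member (log2 of Flag-IP over input) against the distance of its middle probe from the gene start in bp, linear within 1000 bp and logarithmic beyond, with the median of all genes as a line (0.89). Med26, Med12, Med25 and Med11 lie far outside the grey 500 bp span with windows of 1.65 to 1.87.

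Averaged by distance, the members stood highest at the start. Between 0 and 250 bp the mean over members was 0.82 (SD 0.66 over 27 members, 25 of them above 0), against 0.43 for other genes. Just upstream, between -250 and 0 bp, it was 0.69 (SD 0.80 over 29 members), against 0.30 for other genes, and between 250 and 500 bp it was 0.74, against 0.34. Between -2000 and -1500 bp the mean of the members was -0.35, against -0.27 for other genes, and between 2000 and 2500 bp it was -0.37, against -0.20. Farther upstream, between -6000 and -5000 bp, it was 0.07 (SD 0.77 over 16 members), against -0.37, so members stood above other genes there too. Other genes also rose at the start, to a smaller height.

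**Figure D4:**
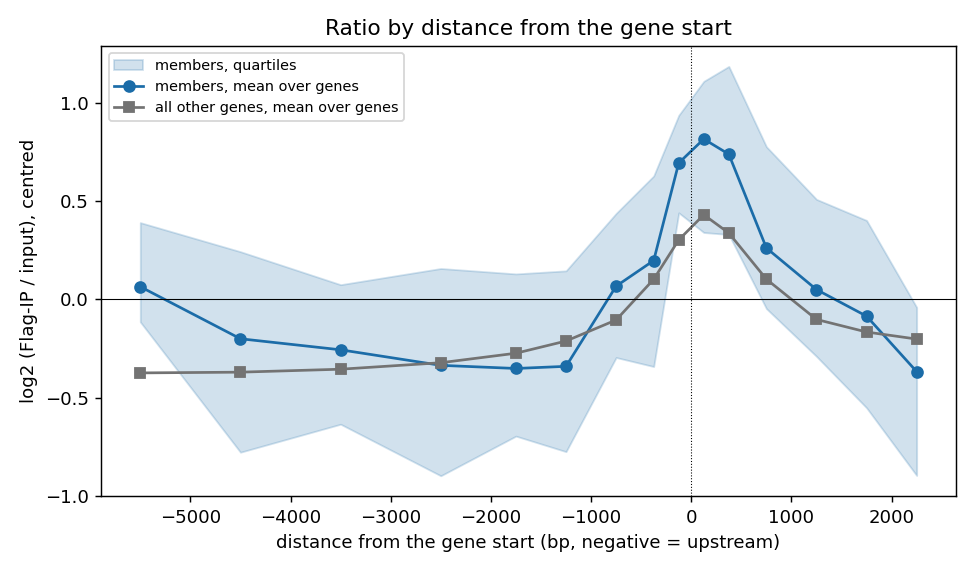
Mean log2 of Flag-IP over input by distance from the gene start in bp for the members (circles, band = quartiles over genes) and for all other genes (squares). Members reach 0.82 between 0 and 250 bp and other genes 0.43, and both lie below 0 between -3000 and -1000 bp and between 1500 and 2500 bp.

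The 2 arrays differed in how high their members stood. On array 1, 12 of 14 members had a highest window of at least 1, with medians of 1.48 for the window and 0.85 for the start mean. On array 2, 8 of 16 did, with medians of 0.98 and 0.51. Over both arrays 41.7% of all genes had a highest window of at least 1, a share that was not computed per array. The other genes differed less between the arrays, with median windows of 0.92 on array 1 and 0.86 on array 2. No gene of the family was on both arrays, so the array and the set of genes on it cannot be told apart.

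Promoter composition moved with the ChIP signal on these arrays. Of the 30 members 26 had a RefSeq promoter, and Med8, Med23, Med24 and Med30 were not matched. The ratio of observed to expected CG dinucleotides, a measure of CpG islands, had a median of 0.82 in members and 0.66 in all genes. Across the 26 members this ratio and the start mean correlated with a Spearman rho of 0.08 and a Pearson r of 0.17. Across 12766 genes the rho was 0.37 and the r 0.42, as a description of genes that share 2 arrays. Among promoters with a ratio of at least 0.6, the median start mean was 0.80 for 22 members and 0.48 for 7130 other genes. Below 0.6 it was 0.33 for 4 members and 0.11 for 5610 other genes. The gap to all other genes was therefore narrower among genes of like composition, and the part of composition in the result was not tested beyond this.

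The input signal, a measure of how bright a probe is, also moved with the start mean over all genes. The median log2 input signal at the start was 10.28 for members and 10.02 for all genes, and it correlated with the start mean at a rho of -0.04 across the 26 members and of 0.33 across 12766 genes. A trend on brightness was then removed from each array, with brightness taken as the mean log2 signal of both channels. This brightness holds the Flag-IP signal itself, so the removal is not an adjustment for input alone and can lower enrichment. After the removal, the median highest window was 0.93 for members and 0.82 for all genes. The count of members with a window of at least 1 was then 13 of 30, against 34.0% of all genes. Those below it after the removal were Med6 (0.56), Med23 (0.66), Med21 (0.81), Med18 (0.84), Med31 (0.87), Med29 (0.91), Med27 (0.95) and Med13l (0.999), while Med10 came to 1.39. The median start mean was then 0.41 for members and 0.19 for all genes. Of the 7 head genes, 7 lay above the median of all genes by start mean and 6 by highest window.

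Of the 7 motifs searched on both strands of the 300 base promoters, CCGGAA differed most from its share in all promoters. It was present in 13 of 26 member promoters (50%), against 15.2% of all 27025 promoters searched. Of 13063 promoters of other measured genes of any CG ratio, 21.4% held it. Of the 7259 among these with a ratio of at least 0.6, 31.6% did. The 13 members with it were Ccnc, Med11, Med12, Med14, Med15, Med17, Med18, Med19, Med20, Med29, Med4, Med6 and Med7. Members with CCGGAA had a median start mean of 0.87, from -0.03 to 1.61, and members without it a median of 0.25, from -0.24 to 1.91. These ranges overlap, and the median highest windows were 1.39 with CCGGAA and 1.34 without.

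The homeodomain core TAAT was present in 15 of 26 member promoters (57.7%), against 58.3% of all promoters. It was in 49.2% of the other measured genes of any CG ratio and in 36.1% of those with a ratio of at least 0.6. Members with TAAT had a median start mean of 0.87 (-0.09 to 1.61), and members without it 0.56 (-0.24 to 1.91). The shares of the remaining motifs are given beside those of all promoters and of the other measured genes with a CG ratio of at least 0.6. TGATNNAT, a composite site of Hox proteins with their partner Pbx, was in 2 members, Med19 and Med31 (7.69%), against 9.04% and 3.00%. CCAAT was in 11 members (42.3%), against 37.9% and 38.2%. GATAA, the core of sites for Gata1 and its relatives, was in 4 (15.4%), against 25.8% and 12.6%. CACGTG, an E-box, was also in 4, against 7.24% and 11.7%. The core promoter element TATAAA was in 3 (11.5%), against 14.2% and 5.87%. For TGATNNAT, GATAA and TATAAA the members were thus below all promoters and above the other measured genes with a CG ratio of at least 0.6. Among other measured genes of any CG ratio the shares were 6.47%, 21.0% and 12.0%. Against these the members were above for TGATNNAT and below for GATAA and TATAAA. The member shares rest on 2, 4 and 3 members. The 26 members were not limited by CG ratio: 4 lay under 0.6, among them Med31 (0.54).

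Genes that work beside Mediator were described with the same measures. The group of Mediator partners, which holds the elongation kinase P-TEFb, the super elongation complex and cohesin genes, stood higher than Mediator itself. It had a median highest window of 1.59 and a median start mean of 1.14. A highest window of at least 1 was seen in 11 of 13 (84.6%), against 41.7% of all genes. Cdk9, the kinase of P-TEFb, had a highest window of 2.24 at -1525 bp and a start mean of 0.16. Hexim1, which holds P-TEFb inactive, had 1.92 at 59 bp and a start mean of 1.36. Ccnt1, a cyclin of P-TEFb, had 1.68 and the highest start mean of the group, 1.59. Cdk8 had a highest window of 0.94 and a start mean of -0.24, against 1.66 and 1.18 in its paralog Cdk19, which is in the partner list. The start mean of Cdk8 lacks the stretch between -405 and 302 bp, where it had no probe in use.

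RNA polymerase II subunit genes had a median highest window of 1.02 and a median start mean of 0.48. A highest window of at least 1 was seen in 6 of 11 (54.5%), against 41.7% of all genes. Polr2i reached 2.24 and Polr2c, the lowest, had 0.26. The general transcription factors had a median highest window of 0.99 and a median start mean of 0.57. In 13 of 28 (46.4%) the highest window was at least 1, near the 41.7% of all genes. Among the general factors, Gtf2a1 had the highest window, 2.02, and Gtf2b the highest start mean, 1.47. The genes with proteasome symbols, most of them subunits used in every cell, had a median highest window of 1.36 and a median start mean of 0.63. In 28 of 37 on this list (75.7%) the highest window was at least 1. This list was taken by name and holds also Psmb11, a subunit of the thymus, and Psmc3ip, a meiotic protein that is no subunit. Genes of cytosolic ribosomal proteins had 1.40 and 0.85, with 63 of 84 (75%) at a highest window of at least 1. The proteasome and ribosomal shares were above the 66.7% of Mediator members. Mediator genes thus lay between the medians of the general factors and the partners on both measures.

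**Figure D5:**
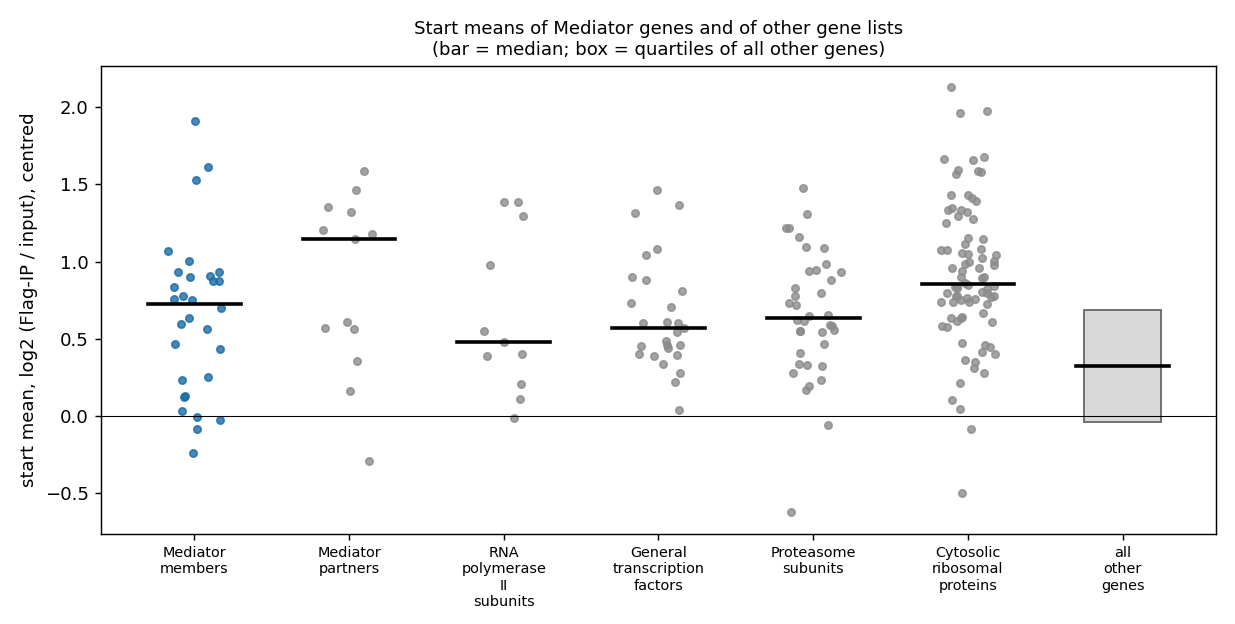
Start mean (log2 of Flag-IP over input) of each gene in the Mediator family and in 5 other lists, with the median as a bar, and the quartiles and median of all other genes as a box. The Mediator median of 0.73 lies above that of all other genes (0.32), below that of its partners (1.14) and that of the ribosomal protein genes (0.85).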

How the data were processed

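Flag-IP (red, Cy5) and input (green, Cy3) DNA were read on 2 Agilent promoter arrays, 1 per probe set. The deposited intensities are processed signals of Agilent Feature Extraction 10.1.1.1, with background subtracted, spatial trends removed and 1 linear factor per dye, per the file headers. The authors' log10 ratio column and deposited value tables, also in log10, served as alternatives, and the log10 error column as the probe error, each turned to log2 here. The flags deposited with each spot were used to leave out control spots and 19 and 38 outlier probes. No probe was saturated.

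Log2 ratios were centred on each array's median (0.06 and 0.07 before), with no loess or quantile step. Windows and start means were computed in Python 3.11.15 with pandas 2.3.3, and alternatives with limma 3.58.1 in R 4.3.3. The code was tested on simulated data. Annotation symbols were matched to RefSeq tables of GRCm38.p6 for names: of 16908 symbols, 16334 by accession, 276 by symbol, 164 by synonym, and 134 were kept. A probe annotated to several genes counted for each.

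The members, modules and lists were chosen with earlier results of these data known. Full values were given for the 8 members with the highest window and the 4 with the lowest, and others by module. Longest runs, genes sharing probes, windows within 1000 bp and promoters by CG ratio were added after seeing the data. With 1 sample per promoter there is no test and no p-value, and the number of arrays limits the precision. The 6 expression arrays (MigR1, HoxB4 and iHoxB4, 2 each) were not used here, since no table at hand paired their probe sets with genes. The counts of the partner list include a gene whose own values are not reported here.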

Additional observations from a re-analysis of the deposited data

How the results depend on the processing

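The median highest window, the median start mean and the count of members at 1 or above were recomputed under each alternative. The median start mean kept its sign in each. With a brightness trend removed, the median highest window was 0.93, the median start mean 0.41 and the count 13 of 30. With 5 probes per window the median highest window was 0.85 and the count 13, against 0.69 and 26.8% for all genes. With single probes the median was 1.64 and the count 25, against 1.30 and 69.3% for all genes, and with a 1000 bp span the start mean was 0.49, against 0.23. The other alternatives moved the medians by less than the probe error of 0.23 and kept the count between 19 and 23. Given beside the share of all genes, it was 23 with normexp background correction (50.4%) and 23 with no centring (46.6%). The deposited ratios and tables gave 20 (41.7%). Probes well above background (39.0%), probes of 1 gene (38.8%) and windows within 1000 bp (30.5%) each gave 19. With normexp the median highest window was 1.26 for members and 1.01 for all genes. The median percentile of the members was then 68.4, against 79.2 in the main setting. Across the alternatives run, the median of the members stayed above that of all genes, most narrowly with the brightness trend removed. Head genes at a window of 1 or above numbered 5 of 7 with the trend removed and 5 of 7 with 5 probes per window. Of the 12 members given in full, 7 moved by more than the probe error with normexp, 7 with the trend removed, 7 with single probes, 4 with 5 probes and 1, Med12, with probes of 1 gene. The cause of these shifts was not tested. A paired fit, leaving out arrays in turn and the other expression alternatives were not run. No paired analysis was possible because each promoter had 1 Flag-IP sample and no table paired expression probe sets with genes.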
